A study of Mus musculus with 48 samples.

Results

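The mRNAs described here encode nuclear pore proteins and karyopherins, the building blocks of the nuclear pore complex and the receptors that carry cargo through it. They are the protein-coding genes whose symbols begin with Nup, Kpna, Kpnb, Ipo, Xpo or Tnpo in the standard numbering, together with Tpr, Aaas, Seh1l, Sec13, Pom121, Ndc1, Rae1, Cse1l, Ran, Ranbp1, Ranbp2, Rangap1, Rcc1, Nxf1 and Nxt1. This rule found 59 genes among the 50600 of the count data, of which 21764 are protein-coding, and 57 of the 59 passed the filter on low counts that left 13889 genes for testing. Nup62cl, a relative of Nup62, and Kpna7, an importin alpha of oocytes and early embryos, did not pass: over all 12 libraries they had 3 and 8 counts.

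The mRNAs came from mPDAC, a cell line of mouse pancreatic ductal adenocarcinoma with a FVB/N x C57BL6 background, for which the labels give an age of 8 weeks. In 3 cultures, numbered 1, 2 and 3, the cells were treated for 48 h with 50 µM N6L, a pseudopeptide that antagonizes nucleolin, and 3 cultures, numbered 1, 2 and 4, were non-treated (NT). Each culture gave a cytoplasmic library, the mRNA of the lysate after nuclei and mitochondria had been spun out, and a polysomal library, the mRNA of the pooled gradient fractions that sediment with several ribosomes. Poly(A)+ RNA was sequenced after emetine, a drug that holds ribosomes on the mRNA, and the totals ran from 19519911 to 44972333 counts in the 12 libraries. All groups come from a single cell line, and nothing in the labels says that the cultures were grown independently, so p-values measure the spread between these cultures.

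The nuclear pore is a ring-shaped channel in the nuclear envelope. A Y-shaped scaffold (Y complex) and an inner ring hold it in place, transmembrane proteins anchor it, and proteins rich in phenylalanine-glycine repeats fill the central channel, the cytoplasmic filaments and the nuclear basket. Importins bind cargo in the cytoplasm and release it in the nucleus when they bind Ran loaded with GTP, whereas exportins need Ran-GTP to hold their cargo. The gradient is kept by Rcc1, which loads Ran with GTP on chromatin, and by Rangap1 and Ranbp1, which together with Ranbp2 make Ran hydrolyse it in the cytoplasm. Most mRNA leaves by another route, the Nxf1-Nxt1 receptor, which does not depend on the Ran gradient. Several of these receptors, among them Kpna2 and Xpo1, are known for high expression in many tumours.

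The cells had the keratins of a ductal epithelium, with Krt18 at a mean of 3131 CPM (counts scaled to a common library size, with TMM factors, and given per 1e+06 counts) and Krt8 at 2823 CPM in non-treated cytoplasm, but the epithelial marker Epcam was near 0 (0.151 CPM). Markers of other cells were rare. The summed level of 6 fibroblast markers, led by Col1a1, lay between 0.450 and 1.22 CPM in the 12 libraries, that of 5 leukocyte markers, led by Cd68 and Csf1r, between 1.86 and 3.71 CPM and that of 4 endothelial markers between 0.351 and 1.15 CPM. Lum, Cpa1 and Amy2a5 were at 0 counts in all libraries. The acinar list was carried by Cela1 alone (37.1 CPM in non-treated cytoplasm). Among RNAs that normally stay in the nucleus, the summed level of Malat1, Neat1 and Kcnq1ot1 was 84.96, 129 and 77.9 CPM in non-treated cytoplasm and 197, 226 and 230.4 CPM in N6L cytoplasm, a difference carried by Neat1 (log2 fold change 2.01, FDR 0.000697). Their part in the results below was not tested.

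The polysomal library of N6L culture 3 stood apart. The median log2 difference of the 57 members from the mean of non-treated polysomes was 0.08 in N6L culture 1, -0.15 in culture 2 and -0.71 in culture 3, whereas the same medians over all genes tested were 0.04, 0.01 and -0.03. The members together took 0.439% of the counts of that library and 0.671% and 0.575% in the polysomes of N6L cultures 1 and 2, against 0.592% to 0.687% in non-treated polysomes. The mitochondrial share of counts was 0.0450%, 0.0384% and 0.0157% in the polysomes of N6L cultures 1, 2 and 3, the nuclear RNAs named above summed to 151, 114 and 77.1 CPM there and Cela1 had 42.4, 63.7 and 82.7 CPM. Culture 3 thus had the lowest mitochondrial share and nuclear RNA sum and the highest Cela1 level of the 3. In the polysomes of NT cultures 1, 2 and 4, these values were 0.116%, 0.0454% and 0.108%, then 68.2, 55.2 and 49.6 CPM, and for Cela1 42.8, 40.3 and 58.9 CPM. Cytoplasmic libraries had mitochondrial shares of 0.242%, 0.189% and 0.121% after N6L, all below the 0.836%, 0.454% and 0.966% of NT cultures 1, 2 and 4. The part of these differences in the results was not tested. The members' medians and counts that rest on N6L polysomes are therefore also given without culture 3. CPM values or ratios of several named genes are given for each culture.

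Levels are compared between genes per kilobase of exon. In non-treated cytoplasm, Ranbp1 (249 CPM per kb) and Ran (183 CPM per kb) stood highest, followed by Kpnb1, the importin beta that most import complexes share (92.7 CPM per kb), Nup62 of the central channel (69.2) and Nxt1 (67.2). In the other classes the highest members on this scale were Sec13 of the Y complex (54.9 CPM per kb), Aaas of the cytoplasmic face (48.6), Xpot, the exporter of tRNA (40.0), Nup50 of the basket (30.3), Kpna2 among the importin alphas (19.7), Nup93 of the inner ring (18.3) and Pom121 among the membrane proteins (7.45). Of the 57 tested members Nup210l was lowest (0.602 CPM per kb, or 1009 counts in all libraries together). The small Ran proteins were thus far more abundant as mRNA than the large basket and filament proteins, among them Ranbp2 at 2.85 and Nup153 at 6.74 CPM per kb.

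The promoters of 7 members are shown beside the comparison described next: those of Ranbp1, Aaas and Nxt1, the members with the largest called decreases in the cytoplasm, those of Ranbp2 and Nup153, whose mRNAs rose most, and, for the Ran cycle, those of Rcc1, which had a smaller decrease, and of Ran, which did not pass the test. Each run is the coding-strand sequence from 100 bases before to 20 bases after the start that RefSeq gives (GRCm38.p6), 5′ to 3′, with capitals for the motifs searched, which were the GC box GGGCGG, the CCAAT box CCAAT, the ETS motif CCGGAAG, the E-box CACGTG and the NRF1 motif GCATGCGC, on either strand. These motifs do not overlap each other in the windows shown.
Ranbp1, chr16:18248675-18248794, minus strand: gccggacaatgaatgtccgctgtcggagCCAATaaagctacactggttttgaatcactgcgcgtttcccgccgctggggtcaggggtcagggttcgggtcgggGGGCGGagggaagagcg
Aaas, chr15:102350740-102350859, minus strand: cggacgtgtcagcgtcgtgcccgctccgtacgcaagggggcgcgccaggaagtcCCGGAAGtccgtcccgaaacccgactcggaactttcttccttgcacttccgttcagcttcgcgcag
Nxt1, chr2:148672515-148672634, plus strand: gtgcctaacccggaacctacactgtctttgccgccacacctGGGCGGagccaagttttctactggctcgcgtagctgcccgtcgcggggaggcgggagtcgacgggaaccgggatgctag
Rcc1, chr4:132345731-132345850, minus strand: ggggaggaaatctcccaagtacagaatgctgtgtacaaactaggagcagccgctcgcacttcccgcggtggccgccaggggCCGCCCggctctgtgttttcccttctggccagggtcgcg
Ran, chr5:129020056-129020175, plus strand: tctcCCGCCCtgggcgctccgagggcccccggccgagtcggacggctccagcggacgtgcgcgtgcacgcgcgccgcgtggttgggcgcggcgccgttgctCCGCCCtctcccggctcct
Ranbp2, chr10:58446752-58446871, plus strand: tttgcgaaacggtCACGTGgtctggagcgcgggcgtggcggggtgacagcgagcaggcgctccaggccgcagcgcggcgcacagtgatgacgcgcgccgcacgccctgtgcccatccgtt
Nup153, chr13:46727830-46727949, minus strand: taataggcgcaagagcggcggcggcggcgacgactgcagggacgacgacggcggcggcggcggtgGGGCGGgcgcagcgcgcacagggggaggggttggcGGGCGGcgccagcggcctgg
The windows of Ranbp1, Nxt1, Rcc1, Ran and Nup153 held a GC box, that of Aaas an ETS motif and that of Ranbp2 an E-box, so the GC box was found on both sides of the response. RefSeq gave 57 promoter windows for 48 of the 59 members. The GC box was in 47.4% of these windows and in 26.7% of all 32851 windows of the same length, the ETS motif in 17.5% and 5.77%, the CCAAT box in 29.8% and 20.8%, the E-box in 7.02% and 3.74%, and the NRF1 motif in 5.26% and 1.75%. A start with C and 4 further pyrimidines, the letters that open a 5′TOP mRNA, was found for Ipo7, Nup133 and Rcc1, in 5.26% of the members' windows and 2.51% of all. A match is only a run of letters and was not linked to any level here.

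To find how treatment changed the amount of these mRNAs, N6L cytoplasm was compared with non-treated cytoplasm. Ranbp1 and Rcc1 of the Ran cycle, Nxt1 and 6 nucleoporin mRNAs fell, while Ranbp2, Nup153 and a pair of exportin mRNAs rose. Of the 57 members, 4 rose (Ranbp2, Nup153, Xpo5, Xpo7) and 9 fell (Ranbp1, Aaas, Nxt1, Nup43, Nup35, Ndc1, Nup85, Rcc1, Nup37) at a false discovery rate (FDR) under 0.05, from quasi-likelihood fits in edgeR adjusted over all genes by the Benjamini-Hochberg method. These 13 are 22.8% of the members, against 28.3% of all genes tested, and the members' 7.02% higher and 15.8% lower stand beside 14.5% higher and 13.8% lower of all genes. The members' median log2 fold change was 0.12 and that of all genes 0.04. Each level is a share of its library, so it depends on the other mRNAs there, and in such bulk RNA a change in the number of cells and in the RNA per cell cannot be told apart. Scaling by library totals alone moved the median of all genes to 0.19 and that of the members to 0.26, so directions are given relative to the TMM scale.

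Of the Ran cycle, Ranbp1 (ENSMUSG00000005732, chr16:18239784-18248732, minus strand, GRCm38) had 383, 329 and 535 CPM in non-treated cytoplasm and 193, 191 and 199.7 CPM in N6L cytoplasm. All 3 treated cultures lay close together, far below the lowest non-treated one. The log2 fold change was -1.09 (standard error 0.19, FDR 0.00238), and it kept its call in all 16 alternative settings. Ranbp1 protein binds Ran-GTP in the cytoplasm and helps Rangap1 to act. Its exons share 16.9% of their bases with another annotated gene on the same strand and 3.2% with Trmt2a on the opposite strand, so part of its count is uncertain. Rcc1 had 184, 185 and 195 CPM in non-treated and 149, 120.4 and 129 CPM in N6L cytoplasm, without overlap (log2 fold change -0.50, standard error 0.14, FDR 0.0168). This call was lost without N6L culture 2 or NT culture 1 and without the filter on low counts. Ran itself (ENSMUSG00000029430, chr5:129020069-129024323, plus strand), the small GTPase, had 450.0, 489 and 516 CPM in non-treated and 386, 382 and 385 CPM in N6L cytoplasm. The groups did not overlap, but the difference of -0.33 on the log2 scale (standard error 0.14) missed the limit with an FDR of 0.0905. Rangap1, which makes Ran hydrolyse GTP, overlapped between treatments, with 235, 264 and 267 CPM against 311, 235 and 254 CPM, and differed by 0.06 on the log2 scale (standard error 0.16, FDR 0.786).

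**Figure D1:**
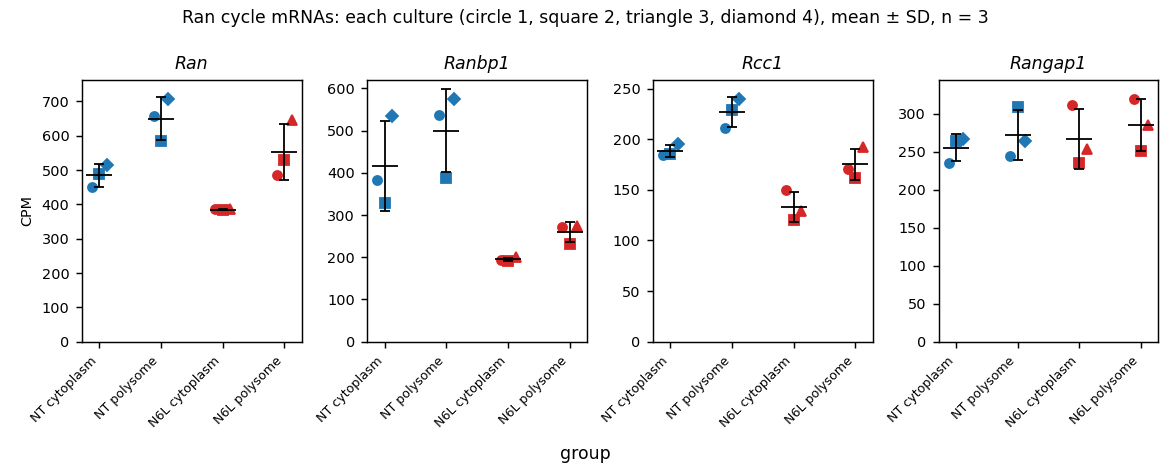
CPM of the mRNAs of the 4 Ran cycle genes in each group; each symbol is a library (blue non-treated, red N6L; circle, square, triangle and diamond for cultures 1, 2, 3 and 4), and bars show mean ± SD of 3 cultures. Ranbp1 and Rcc1 sit lower in N6L than in non-treated cells in both fractions without overlap, while the values of Rangap1 overlap.

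The nucleoporins that rose were a filament and a basket protein. Ranbp2 (ENSMUSG00000003226, chr10:58446920-58494356, plus strand), the giant SUMO ligase of the cytoplasmic filaments, also known as Nup358, had 30.9, 45.9 and 23.4 CPM in non-treated cytoplasm and 56.9, 109.7 and 88.3 CPM in N6L cytoplasm. Every treated culture lay above every non-treated one, and the fit put the increase at 1.35 on the log2 scale, with a standard error of 0.36 and an FDR of 0.0155. Nup153 (ENSMUSG00000021374, chr13:46679905-46727940, minus strand), the basket protein that docks import complexes, had 51.6, 54.1 and 36.2 CPM against 109.5, 117 and 96.9 CPM. The groups did not overlap here either (log2 fold change 1.19, standard error 0.29, FDR 0.00980). Tpr, the coiled-coil protein that forms the basket, had a log2 fold change of 0.42 with an FDR of 0.327, and its values of 141, 196 and 148 CPM overlapped with 142, 252 and 255 CPM after N6L. Nup98, a repeat protein of the central channel, was at 105, 95.8 and 83.5 CPM in non-treated and 151, 145 and 144 CPM in N6L cytoplasm, without overlap, but with an FDR of 0.0790 (log2 fold change 0.63). The third basket protein, Nup50, had a log2 fold change of 0.01. With a correction for transcript length and GC content the increases were smaller, 0.80 for Ranbp2 and 0.73 for Nup153, and both passed. Calls for the increases depended on single cultures: without N6L culture 2 or NT culture 4, no member was called higher, and Ranbp2 lost its call without N6L culture 2, NT culture 1 or NT culture 4 and Nup153 without N6L culture 2 or NT culture 4.

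The nucleoporins that fell came from several parts of the pore. Aaas, the WD-repeat protein ALADIN of the cytoplasmic face, had 139, 115 and 153 CPM in non-treated and 86.9, 71.5 and 77.5 CPM in N6L cytoplasm, without overlap (log2 fold change -0.79, standard error 0.15, FDR 0.00332), and with Ranbp1 it was the other member called in all 16 alternative settings. Of 8 mRNAs of the Y complex, the outer scaffold, 3 fell (37.5%, against 13.8% of all genes) and 0 rose (against 14.5%), and their median log2 fold change was -0.24. Nup43 changed most among them, from 50.8, 44.5 and 61.3 CPM to 31.1, 31.3 and 32.7 CPM (log2 fold change -0.72, FDR 0.0126), beside Nup85 (-0.54, FDR 0.0252) and Nup37 (-0.45, FDR 0.0318). Nup35, which links the inner ring to the membrane, went from 23.1, 19.97 and 30.7 CPM to 14.3, 15.7 and 14.9 CPM (log2 fold change -0.72, FDR 0.0112). A gene of another locus, Gm4353, is identical to 99.3% over 747 bases of its transcript and held 1586 counts against 7250 for Nup35, so reads may have been split between them. Ndc1, a membrane protein that anchors the pore, had an FDR of 0.0459 for its log2 fold change of -0.58. Of these calls, that of Nup35 was lost without NT culture 4, those of Nup43, Nup85, Nup37 and Ndc1 without N6L culture 2 or NT culture 4, and those of Nup85, Nup37 and Ndc1 also without NT culture 1, with library size alone and without the filter on low counts. The call of Nup85, which held in 10 of 16 alternative settings, was lost as well with the culture number as a block. The call of Ndc1 was also lost without N6L culture 3 or NT culture 2, and that of Nup37, which held in 8 of 16 alternative settings, without N6L culture 1 or NT culture 2 and with a correction for transcript length and GC content. None of the other scaffold members of these classes, such as Nup107, Nup133 or Nup205, passed the test.

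Among the transport receptors, 2 of 7 exportins rose (28.6%, against 14.5% of all genes), and with a correction for transcript length and GC content none did. The difference between exportins and importins was not tested. None of the 11 import receptors and the 5 tested importin alphas was called, though all 5 importin alphas had a fold change above 0 (median log2 0.25). With the correction, Kpna1 (0.06), Kpna2 (0.22) and Kpna3 (0.02) were above 0, and Kpna4 (-0.10) and Kpna6 (-0.27) below. Kpnb1 had 661, 635 and 537 CPM in non-treated and 695, 646 and 626 CPM in N6L cytoplasm, which overlapped (log2 fold change 0.10, standard error 0.26). Kpna2, the importin alpha of proliferating cells, had a log2 fold change of 0.17 with an FDR of 0.539. Of the 7 exportins, Xpo5, which exports precursors of microRNAs, rose from 60.8, 71.0 and 41.5 CPM to 115, 87.7 and 91.0 CPM, and Xpo7 from 102, 103 and 82.8 CPM to 143, 148 and 134 CPM. Neither overlapped between treatments (log2 fold changes 0.76 and 0.56, FDR 0.0380 and 0.0328), and with the correction they were at 0.42 (FDR 0.103) and -0.0298 (FDR 0.864). Both calls were also lost without N6L culture 1 or 2 or NT culture 1 or 4, and that of Xpo7 without NT culture 2. Xpo1, the exportin of proteins with a leucine-rich export signal, had a log2 fold change of 0.39 (FDR 0.283) and Cse1l, which returns importin alpha to the cytoplasm, one of 0.12 (FDR 0.730). Of the mRNA export receptor, the small subunit Nxt1 fell from 68.3, 61.5 and 95.3 CPM to 43.5, 41.5 and 45.4 CPM without overlap (log2 fold change -0.79, standard error 0.22, FDR 0.0169, a call lost without N6L culture 2, and -0.43 with the correction), while its partner Nxf1 had a log2 fold change of -0.10 (FDR 0.591), which was 0.04 when scaled by library totals alone. Over all members, the 3 N6L values lay above the 3 non-treated values for 17 (29.8%, against 29.3% of all genes) and below for 15 (26.3%, against 25.6% of all genes).

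**Figure D2:**
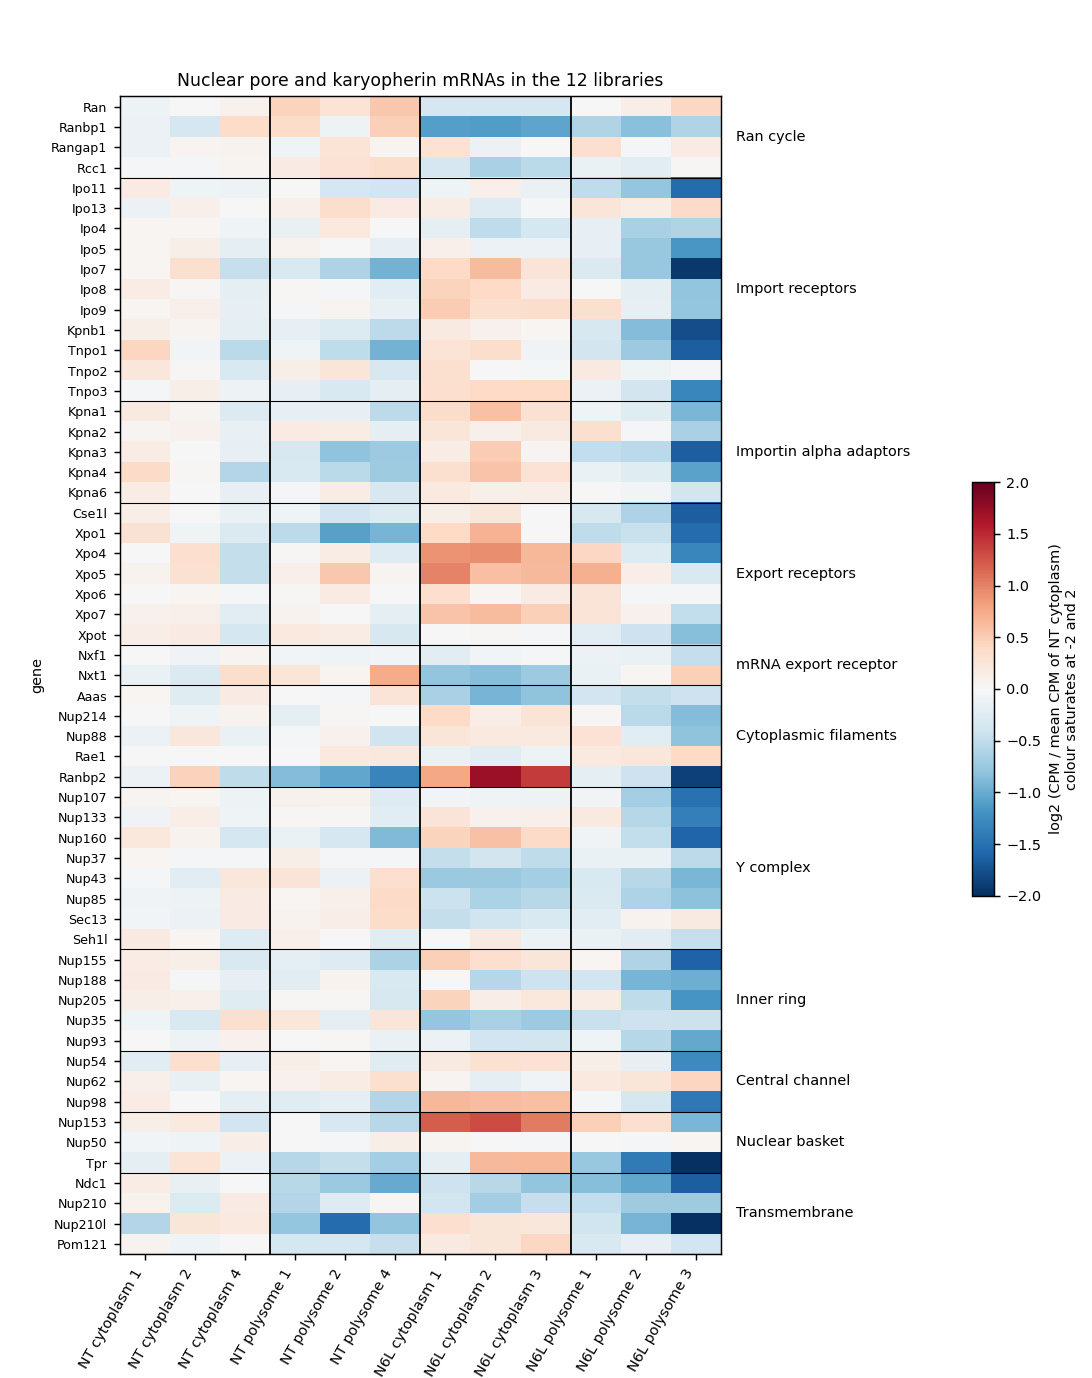
Level of each of the 57 tested members (rows, ordered by role) in the 12 libraries (columns), as log2 of CPM over the mean CPM of non-treated cytoplasm (red higher, blue lower). Ranbp2 and Nup153 are red in N6L cytoplasm and Ranbp1 is blue, and most rows are darkest blue in the polysomal library of N6L culture 3.

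In polysomal RNA, the same treatment gave no increase among the members. Ranbp1, Nup43, Nup85 and Aaas fell, 4 of 57 (7.02%), against 9.67% of all genes tested, of which 6.01% were higher and 3.66% lower. The members' median log2 fold change was -0.23 and 46 of 57 lay below 0, whereas the median of all genes was 0.0008. For 13 members (22.8%) all N6L values lay below all non-treated values, against 11.9% of all genes, and for 0 members above, against 13.7% of all genes. Without N6L culture 3 the median of the members was -0.04, with 32 of 57 below 0 and 2 called lower (3.51%, against 2.91% of all genes). Without N6L culture 1 it was -0.43, with 51 below 0 and 13 called lower (22.8%, against 4.93% of all genes). With N6L cultures 1 and 2 alone, the values lay below all non-treated ones for 16 members (28.1%, against 21.8% of all genes) and above for 6 (10.5%, against 24.8%).

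Ranbp1 had 537, 389 and 575 CPM in non-treated polysomes and 273, 232 and 275 CPM in N6L polysomes. The groups did not overlap, and the log2 fold change was -0.95 (standard error 0.19, FDR 0.00960). Nup43 and Nup85, neighbours in the Y complex, had log2 fold changes of -0.75 (standard error 0.18, FDR 0.0239) and -0.74 (standard error 0.16, FDR 0.0144). Nup85 had 145, 149.9 and 182 CPM in non-treated and 114, 91.2 and 79.8 CPM in N6L polysomes, where culture 3 was lowest. Aaas had 137, 132 and 162 CPM against 104, 97.5 and 102 CPM, and its log2 fold change was -0.51 (FDR 0.0463), a call that was lost when any culture was left out. The calls of all 4 were lost without N6L culture 2 or NT culture 1, that of Nup43 also without N6L culture 3 or NT culture 4, and that of Nup85 without NT culture 4. With only the polysomal groups fitted, Nup43, Nup85 and Aaas lost their calls, and Aaas also with library size alone, without the filter on low counts and with the culture number as a block.

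The other named members did not pass in polysomal RNA in the main fit. With a correction for transcript length and GC content, Rcc1 (log2 fold change -0.51, FDR 0.00527), Kpnb1 (-0.65, FDR 0.012), Tpr (-0.87, FDR 0.014) and Cse1l (-0.56, FDR 0.026) were called lower. The values below are from the main fit. Ran had 658, 584 and 707 CPM in non-treated and 486, 531 and 645 CPM in N6L polysomes, which overlapped (log2 fold change -0.23, FDR 0.327), and Rangap1 had one of 0.07. Rcc1 had 211, 229 and 239.7 CPM against 171, 162 and 192 CPM, without overlap, at an FDR of 0.0982 (log2 fold change -0.37). Kpnb1 had 547, 507 and 426 CPM in non-treated polysomes and 487, 333 and 178 CPM in N6L polysomes, a wide spread in which culture 1 overlapped with the non-treated values (log2 fold change -0.57, FDR 0.178). Tpr went from 108, 117 and 101 CPM to 94.97, 60.8 and 29.8 CPM, with all treated values lower (log2 fold change -0.81, FDR 0.125). For the cytoplasmic risers Ranbp2 and Nup153, the log2 fold changes in polysomes were 0.41 (FDR 0.504) and 0.35 (FDR 0.465), and their values overlapped. Xpo1 (0.08), Kpna2 (-0.12), Cse1l (-0.51), Nxf1 (-0.17) and Nup98 (-0.17) had log2 fold changes with FDR values of 0.201 or more.

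**Figure D3:**
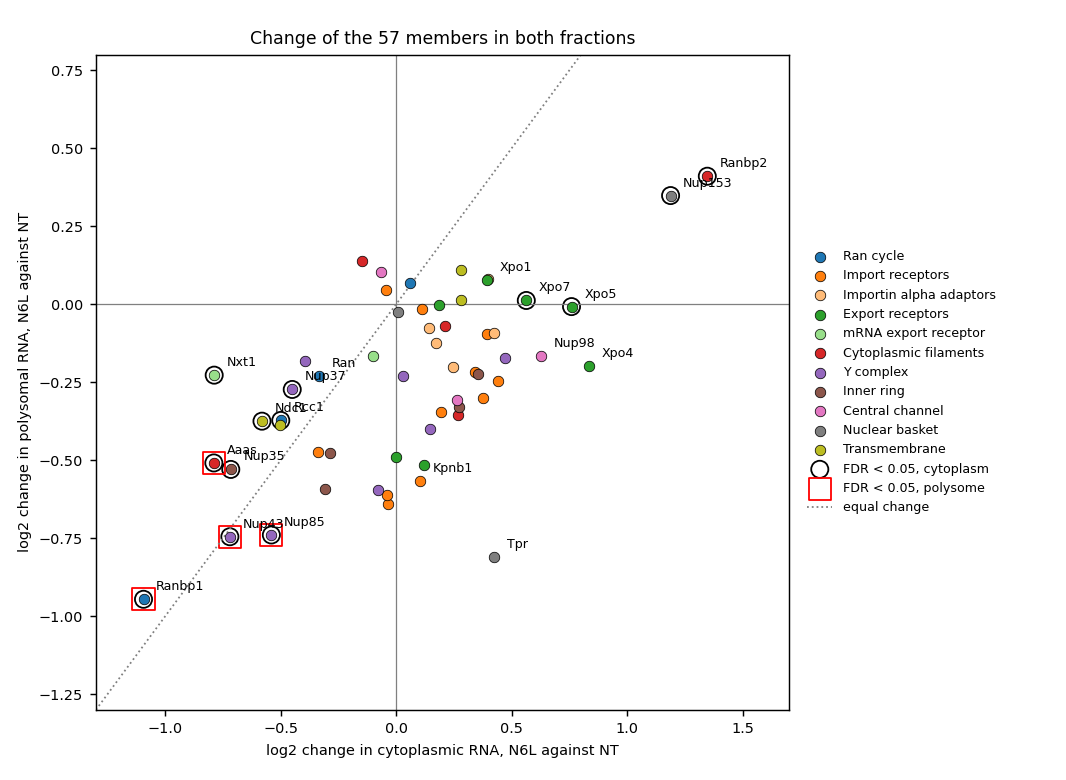
Fitted log2 change between N6L and non-treated cells in polysomal RNA (vertical) against that in cytoplasmic RNA (horizontal) for the 57 members, coloured by role; black rings mark genes that passed the FDR limit in the cytoplasm, red squares those that passed in polysomes, and the dotted line equal change. The 4 genes with red squares lie at the lower left, and Ranbp2 and Nup153 lie at the far right and below the dotted line.

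Within a treatment, polysomal RNA was compared with cytoplasmic RNA to see which mRNAs sat more or less on polysomes than other mRNAs did. The TMM scale is set by the bulk of the genes, so a loss of polysomes shared by all mRNAs would not show. The main fit did not pair both fractions of a lysate. In non-treated cells no member differed, against 0.209% of all genes. An unadjusted p under 0.05 was reached by 7 members (12.3%), against 13.4% of all genes, and the members' median log2 ratio was -0.04. DESeq2 called 1 member lower (1.75%, against 1.88% of all genes), and when both fractions of each lysate were paired by a block on the culture, Ndc1 (log2 ratio -0.77) and Xpo1 (-0.83) were lower in polysomes (3.51%, against 1.41% of all genes).

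In N6L-treated cells mRNAs of import and export receptors and of the basket were among those lower in polysomes than in the cytoplasm, while Ran, Rcc1, Nxt1, Rae1 and Sec13 were higher. Of the 57 members 30 were called (52.6%), against 39.0% of all genes: 25 lower (43.9%, against 20.6% of all genes) and 5 higher (8.77%, against 18.4% of all genes). The members' median log2 ratio was -0.54 and that of all genes 0.03. With the culture as a block, 33 were lower (57.9%, against 27.6% of all genes) and 9 higher (15.8%, against 26.1%). Without N6L culture 3 the members' median was -0.32 (all genes 0.02), and 11 were lower (19.3%, against 8.64% of all genes) and 0 higher (against 3.09%). Leaving out N6L culture 2 gave a median of -0.53, with 3 lower (5.26%, against 5.66% of all genes) and 0 higher (against 2.56%). Of the classes, 7 of 11 import receptors, 4 of 7 exportins, 3 of 5 importin alphas, 2 of 3 basket proteins, 2 of 5 filament proteins, 2 of 5 inner ring proteins, 3 of 4 membrane proteins, 1 of 3 channel proteins and 1 of 8 Y complex proteins were lower. A call in N6L-treated cells alone does not show a difference between treatments. The median ratio of the membrane proteins was -0.56 with N6L and -0.58 without. For import receptors it was -0.63 and -0.07, and for exportins -0.58 and -0.02. With a correction for transcript length and GC content, only Ipo7, Tnpo3, Kpna3, Tpr, Ranbp2, Nup98 and Pom121 were called lower, none of them an exportin. The exportins Xpo6 (0.92, FDR 0.00815) and Xpo7 (0.63, FDR 0.00560) were then called higher. The 11 that were lower without N6L culture 3 were Kpnb1, Ipo7, Ipo11, Tnpo3, Kpna3, Xpo1, Cse1l, Ranbp2, Tpr, Nup153 and Nup98.

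Ranbp2 had a log2 polysome-to-cytoplasm ratio of -0.95, -2.13 and -3.26 in N6L cultures 1, 2 and 3, and of -0.75, -1.49 and -0.81 in non-treated cultures 1, 2 and 4. The treated cultures spread widely and culture 1 fell within the non-treated range, while the fitted ratio in N6L cells was -2.003 (standard error 0.37, FDR 0.00430). Tpr had ratios of -0.58, -2.05 and -3.10 after N6L and of -0.38, -0.75 and -0.55 without, again with overlap at culture 1 (fitted ratio in N6L cells -1.81, standard error 0.33, FDR 0.00430). Ranbp2, Tpr and Nup98 kept their calls in all 17 alternative settings of this comparison. Ipo7, an importin of ribosomal proteins and histones, had ratios of -0.69, -1.39 and -2.19 after N6L and a fitted ratio of -1.28 (FDR 0.00938, a call lost without N6L culture 2). Nup210l, a relative of the membrane protein gp210, had a fitted ratio of -1.26 (FDR 0.0171) at levels of 0.695 to 4.35 CPM in N6L libraries. Its call was lost without N6L culture 2 or 3, with technical replicate a alone and with a correction for transcript length and GC content. Kpnb1 reached -0.51, -0.96 and -1.81 in the 3 N6L cultures against -0.27, -0.33 and -0.34 in non-treated ones, without overlap. Its fitted ratio in N6L cells was -0.98 (FDR 0.0118), a call lost without N6L culture 2 and with that correction. In each of these genes N6L culture 3 was the lowest.

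At the other end, Nxt1 had ratios of 0.66, 0.89 and 1.20 in N6L and of 0.38, 0.34 and 0.39 in non-treated cultures, without overlap, and a fitted ratio in N6L cells of 0.94 (standard error 0.22, FDR 0.00694). Ran had ratios of 0.33, 0.47 and 0.74 after N6L and of 0.55, 0.26 and 0.46 without, which overlapped, and its fitted ratio in N6L cells was 0.53 (FDR 0.0129). Rae1, an mRNA export factor bound to Nup98, had a fitted ratio of 0.42 (FDR 0.0208), Sec13, shared between the Y complex and COPII vesicle coats, one of 0.41 (FDR 0.0444) and Rcc1 one of 0.40 (FDR 0.0341). With a correction for length and GC content, Ran (0.52) kept its call, the ratio of Nxt1 was 0.33 (FDR 0.0764) and Rcc1 (0.05), Sec13 (0.12) and Rae1 (-0.05) did not pass. When the lysates were also paired, Nxt1 passed as well (0.33, FDR 0.0120). The calls of all 5 were lost without N6L culture 2 or culture 3, and those of Rcc1, Sec13 and Rae1 also with library size alone, without the filter on low counts and with only the groups compared.

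**Figure D4:**
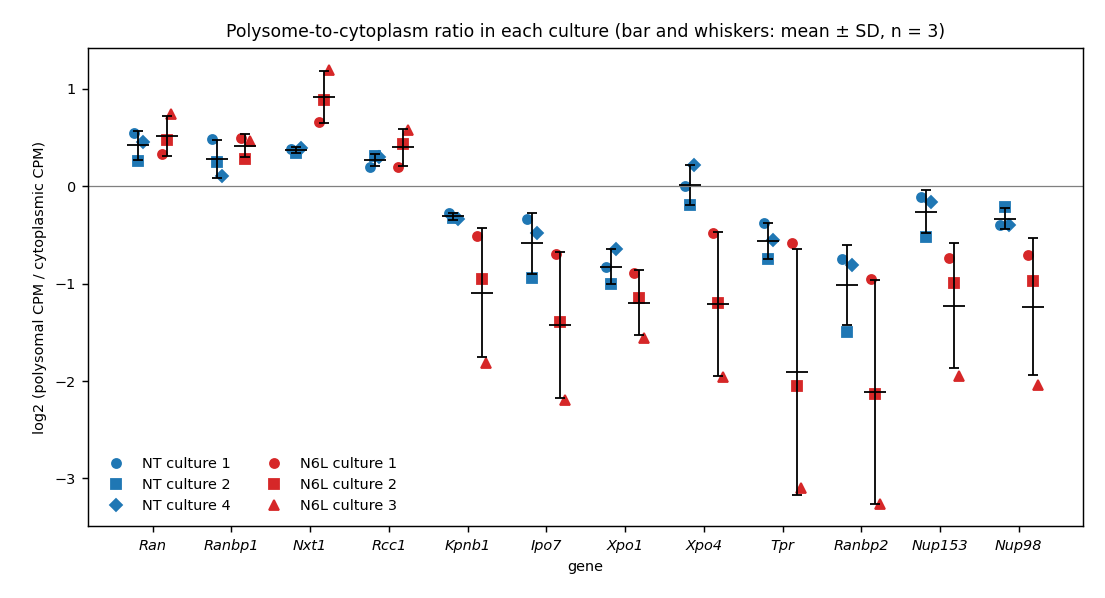
Log2 ratio of polysomal to cytoplasmic CPM for 12 members (horizontal axis) in each culture, non-treated in blue and N6L in red, with mean ± SD of 3 cultures. The red triangles of N6L culture 3 are lowest for Kpnb1, Ipo7, Xpo1, Xpo4, Tpr, Ranbp2, Nup153 and Nup98, and highest for Ran, Nxt1 and Rcc1.

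The translational index (TI) is the polysome-to-cytoplasm log2 ratio of N6L-treated cells minus that of non-treated cells. It tests whether the loading of an mRNA on polysomes, relative to the other mRNAs, differed between treatments. On this scale a TI near or above 0 does not mean that absolute loading was unchanged or higher. No member passed (0 of 57, against 0% of all genes tested), and DESeq2 called none. An unadjusted p under 0.05 was reached by 7 members (12.3%, against 7.73% of all genes) in edgeR's test, by 6 with DESeq2 (10.5%, against 8.88% of all genes) and by 22 with the culture as a block (38.6%, against 21.6% of all genes). The members' median log2 TI was -0.30, with 43 of 57 below 0, and that of all genes 0.008. For 20 members (35.1%, against 14.4% of all genes) the ratios of all N6L cultures lay below those of all non-treated cultures, among them 6 of 7 exportins and 7 of 11 import receptors, and for 3 members (5.26%, against 15.3% of all genes) above. Without N6L culture 3 the median was -0.20, with 42 of 57 below 0 and 2 members at an unadjusted p under 0.05 (3.51%, against 2.96% of all genes), and 21 members (36.8%, against 16.1% of all genes) lay below and 5 (8.77%, against 17.7%) above all non-treated cultures. Without N6L culture 1 the median was -0.53 with 23 members at an unadjusted p under 0.05 (40.4%, against 18.1% of all genes), and without N6L culture 2 it was -0.28 with 0 (0%, against 2.87%). With a correction for length and GC content it was -0.09, with 37 below 0 and 4 at an unadjusted p under 0.05 (7.02%, against 6.89% of all genes). Of the exportins, Xpo1 (0.11), Xpo6 (0.43) and Xpo7 (0.25) were then above 0. Xpot (-0.04), Cse1l (-0.49), Xpo4 (-0.51) and Xpo5 (-0.54) were below. Of the import receptors, Tnpo1 (0.02) and Tnpo2 (0.06) were above 0 and the others ran from -0.48 (Tnpo3) to -0.05 (Ipo13).

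The most negative values were those of Tpr (log2 TI -1.24, standard error 0.45), Xpo4 (-1.03, standard error 0.45), Ranbp2 (-0.94, standard error 0.51) and Nup153 (-0.84, standard error 0.40), each at an FDR of 0.555. With the correction for length and GC content they were at -0.75, -0.51, -0.37 and -0.44. Xpo4, which exports Smad3 and eIF5A, had ratios of 0.01, -0.19 and 0.22 in non-treated and of -0.48, -1.20 and -1.96 in N6L cultures, without overlap. The most positive were Nxt1 (0.56, standard error 0.30), Rae1 (0.29), Aaas (0.28) and Sec13 (0.21), and for the first 3 of these the cultures did not overlap. Of the remaining named genes, Nup98 (-0.79), Kpnb1 (-0.67), Cse1l (-0.64), Xpo1 (-0.32), Kpna2 (-0.30) and Nxf1 (-0.06) had a TI below 0 and Ranbp1 (0.15), Rcc1 (0.13), Ran (0.10) and Rangap1 (0.01) one above 0. None of these passed, whereas without the filter on low counts Tpr did (TI -1.27, FDR 0.00388). Cytoplasmic levels are the denominator of the ratio, so the TI of Ranbp2 or Nxt1 shares its libraries with their cytoplasmic change.

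Transcript length and GC content went along with these ratios. Both were taken from the longest annotated transcript of each gene, which need not be the one expressed in these cells. The 25 members lower in N6L polysomes had transcripts of 3641 to 15121 bases (median 6004) with a median GC content of 44.7%, and the 5 higher ones transcripts of 1116 to 2423 bases (median 1742) with a GC content of 53.2%. The 2 classes did not overlap in length. Across the 57 genes, which are not independent replicates and share the libraries, the ratio in N6L cells had a Spearman correlation of -0.70 with length, beside -0.61 over 13867 genes tested with a known length, and in non-treated cells -0.63 beside -0.46. The cytoplasmic change with N6L ran the other way, with 0.71 for the members and 0.48 for all genes. When each library was corrected for length and GC content, the members' median ratio in N6L cells moved from -0.54 to -0.09, and 7 lower (12.3%, against 8.45% of all genes) and 4 higher members (7.02%, against 11.6%) were called. With the lysates paired as well, the median was -0.09 and 17 were lower (29.8%, against 16.3% of all genes), among them Kpnb1, Cse1l and Nup153, and 8 higher (14%, against 19.8%). Ranbp2 (-0.85), Tpr (-0.98), Ipo7 (-0.59), Tnpo3 (-0.60), Nup98 (-0.48), Kpna3 (-0.45) and Pom121 (-0.38) were lower under the correction alone. Xpo7, whose annotated transcript is the longest of the members, was called in the opposite direction (0.63), a value that depends on this annotated length. With the same correction, 13 members fell (22.8%, against 18% of all genes) and 2 rose (3.51%, against 12.4%) in the cytoplasm, the members' median there moved from 0.12 to -0.16, and in polysomal RNA 16 members fell (28.1%, against 11.2% of all genes) and 0 rose (against 8.87%), with a median of -0.23.

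**Figure D5:**
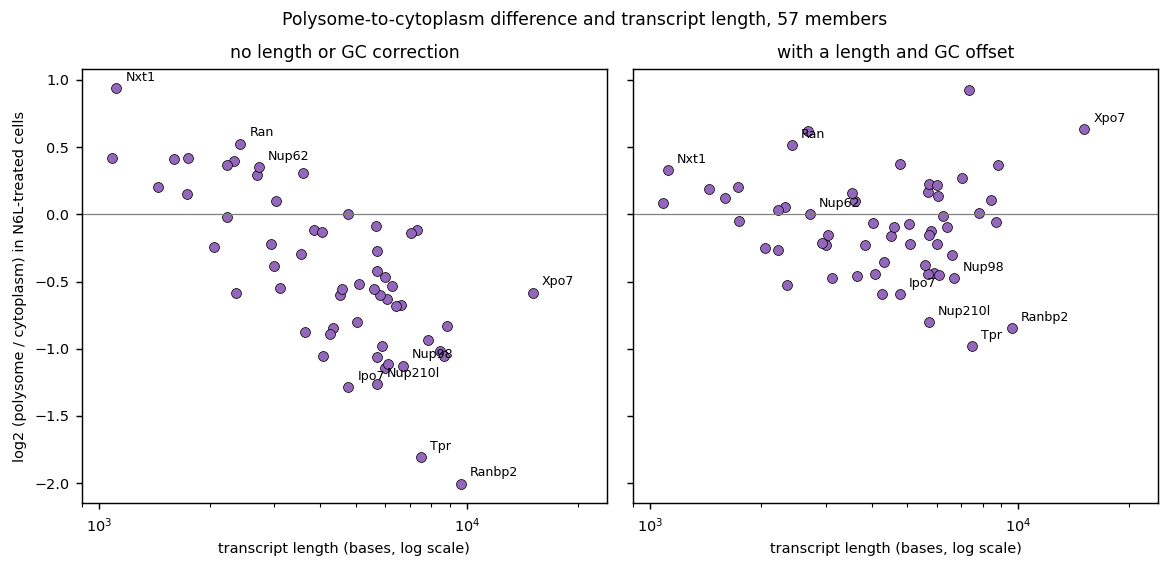
Fitted log2 polysome-to-cytoplasm ratio in N6L-treated cells against transcript length (log axis) for the 57 members, without (left) and with (right) a correction of each library for length and GC content. On the left the points fall from Nxt1 at 0.94 to Ranbp2 at -2.003, and on the right most lie nearer to 0 while Tpr and Ranbp2 are still lowest.

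Other genes of nuclear transport were read from lists of further transport factors (20 tested) and of TREX and TREX-2, the complexes that hand mRNA to Nxf1 (23 tested). In the cytoplasm 3 of these 43 rose (6.98%, against 14.5% of all genes) and 7 fell (16.3%, against 13.8%). Nupl1, the central channel partner of Nup62, went from a mean of 21.5 to 48.3 CPM (log2 fold change 1.17, standard error 0.32, FDR 0.0164) and Zc3h11a, a TREX-associated zinc finger protein, from 1.06 to 3.01 CPM (log2 fold change 1.49, FDR 0.0230). Thoc7, a subunit of the THO core, fell from 137 to 68.2 CPM (log2 fold change -1.004, FDR 0.00435), and Sem1, a small TREX-2 and proteasome subunit, from 365 to 184 CPM (-0.99, FDR 0.00806). In polysomal RNA 1 rose (2.33%, against 6.01% of all genes) and 2 fell (4.65%, against 3.66%). Tor1aip1, a protein of the inner nuclear membrane, rose (0.54, FDR 0.0330), and Thoc7 (-0.96, FDR 0.0118) and Nutf2, the import factor that brings Ran back into the nucleus (-0.48, FDR 0.0475), fell. For polysome against cytoplasm in non-treated cells, 0 of the 43 passed (against 0.209% of all genes). An unadjusted p under 0.05 was reached by 6 of them, against 13.4% of all genes. In N6L-treated cells 7 were higher (16.3%, against 18.4% of all genes) and 7 lower (16.3%, against 20.6%), with a median ratio of -0.05. Without N6L culture 3 these counts were 0 (0%, against 3.09% of all genes) and 3 (6.98%, against 8.64%), and the median ratio was 0.04. Their median TI was -0.07, and -0.008 without N6L culture 3. None passed (against 0% of all genes), and 1 had an unadjusted p under 0.05, against 7.73% of all genes.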

How the data were processed

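The authors prepared stranded poly(A)+ libraries, aligned the reads with STAR to mm10 and assigned them to genes with HTSeq 0.5.3 after bcl2fastq 2.18.0.12 (versions from the submitters' processing notes). They deposited raw counts of 4 technical replicates for each of 12 libraries, 48 sets in all. Not given in the sources used here: the annotation release, the strand setting and the handling of reads with several matches. Technical replicates were summed (their chi-square over its degrees of freedom was 1.02 to 1.04). The title and description of 3 technical replicates of N6L culture 2 cytoplasm name different cultures, and the title was followed. No entry named anything but a gene.

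Of 50600 gene identifiers, 50376 matched GENCODE vM21 (GRCm38), the source of gene symbols, positions, transcript length and GC content. Length and GC content are those of the longest annotated transcript of each gene. Counts were filtered (filterByExpr), scaled (TMM) and fitted over all 12 libraries in edgeR 4.0.16 (R 4.3.3) with 1 mean per group, by glmQLFit and glmQLFTest, for 5 comparisons, and p-values were adjusted over 13889 genes by the Benjamini-Hochberg method (FDR limit 0.05). The common biological coefficient of variation was 0.197. Standard errors are the log2 fold change over the square root of F. Ratios per culture used log2 CPM with a prior count of 2. Fits were tested on simulated data. Alternatives were RLE factors, library totals, no filter, a minimum of 10 counts per library, DESeq2 1.42.0, technical replicate a alone, the conflicting labels left out, only the groups compared, each culture left out, a replicate block, and spline offsets (5 degrees of freedom) for length and GC content.

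Both fractions of a culture come from the same lysate and are paired. The main fit does not use this pairing, which enters only in the alternatives with the culture as a block. The correlation of their deviations from group means was 0.364, 0.452 and 0.645 for non-treated and 0.0368, 0.199 and 0.230 for N6L cultures.

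Genes were named by a rule: 12 transport genes in each comparison between treatments, the 6 largest increases and decreases without overlap among called members there, the 4 largest increases and decreases within a treatment, the 4 highest and lowest TI, and the most abundant member of each class. Genes named beyond it are examples. The members, lists and rule were chosen with earlier results of these data known. By a search at 95% identity over 300 bases, 7 members (Kpna2, Nup35, Nup54, Ran, Tnpo1, Xpo4, Xpot) have near-identical copies. Another gene overlaps 8 members on the same strand (Ipo4 shares most, 55.3% of its exon bases) and 14 on the opposite strand (Pom121 shares 11.9% with Nsun5). As the strand setting is not known here, the counts of all of these are uncertain to that extent.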

Additional observations from a re-analysis of the deposited data

How the results depend on the processing

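Directions and calls of the single genes named were recomputed under the alternatives, and 941 of these results kept their direction and their side of the FDR limit, 102 lost their call, 18 gained one and 34 changed sign. The 941 include results that were not called in the main fit and so had no call to lose. They are therefore no measure of how stable the calls were. Among the 57 tested members Nup210l had the fewest counts (1009). N6L polysomes rest on 3 cultures of which culture 3 stands apart, and the causes of the shifts below were not tested. In the cytoplasm, 5 members fell without the filter on low counts (8.77%, against 6.84% of all genes), 9 rose when only the groups compared were fitted (15.8%, against 20.9%), 2 rose with the length and GC correction (3.51%, against 12.4%) and 8 rose with the culture number as a replicate block (14%, against 18.1%). That correction turned the cytoplasmic log2 fold changes of Xpo1 (-0.0342), Kpnb1 (-0.34), Cse1l (-0.0698), Tpr (-0.12) and Xpo7 (-0.0298), and library size alone that of Nxf1 (0.0437). In polysomes, 9 fell without the filter (15.8%, against 2.65% of all genes), 10 with DESeq2 (17.5%, against 6.55%), 1 with only the groups compared (1.75%, against 0.524%) and 16 with the correction (28.1%, against 11.2%), under which Rangap1 was at -0.0996. For polysome against cytoplasm in non-treated cells, 4 were lower without the filter (7.02%, against 2.35% of all genes), 1 with DESeq2 (1.75%, against 1.88%), 2 with the culture as a block (3.51%, against 1.41%), and 1 higher and 1 lower with block and correction together (1.75% each, against 2.03% and 2.66%). In N6L-treated cells, 2 were higher (3.51%) with library size alone, without the filter or with only the groups compared (against 12.7%, 8.85% and 14.6% of all genes), 9 with the block (15.8%, against 26.1%) and 8 with block and correction (14%, against 19.8%), and 7 were lower with the correction (12.3%, against 8.45%). Rae1 there was at -0.0483 (correction) and -0.0511 (block and correction). For the TI, 1 member was lower without the filter (1.75%, against 0.382% of all genes). Rangap1 had a TI of -0.0542 (library size alone), -0.0298 (no filter), -0.15 (correction) and -0.16 (block and correction), Rcc1 of -0.0845 and -0.0826, Xpo1 of 0.11 and 0.12 and Nxf1 of 0.0204 and 0.0163 under the last 2, and Ranbp1 of -0.000513 with block and correction. The culture number across treatments is only a number in the labels and was not taken as pairing.
When each culture was left out in turn, the counts of members called ran over 0 to 7 higher in the cytoplasm (all genes 4.02% to 15.3%), 3 to 8 lower in the cytoplasm (5.22% to 13.4%), 0 to 13 lower in polysomes (0.121% to 4.93%), 0 to 2 lower for polysome against cytoplasm in non-treated cells (0% to 2.36%), 0 to 8 higher for polysome against cytoplasm in N6L-treated cells (2.56% to 21.1%) and 3 to 29 lower there (5.66% to 21.7%). The log2 values that changed sign in the cytoplasm were Rangap1 from -0.0629 to 0.0972 and Kpnb1 from -0.0131 to 0.16. The log2 values that changed sign in polysomes were Rangap1 from -0.0215 to 0.17, Xpo1 from -0.11 to 0.35, Kpna2 from -0.37 to 0.0997 and Nup98 from -0.47 to 0.14. The log2 values that changed sign for the TI were Ran from -0.0159 to 0.19, Rangap1 from -0.0286 to 0.0809 and Nxf1 from -0.18 to 0.0723.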
